A study of Mus musculus with 6 samples.

Results

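Glycolysis in the mouse testis is carried out by parallel sets of isozymes, and 10 genes of these sets, of 23361 tabulated, are described here. They were chosen by symbol: the spermatogenic isozymes Pgk2, Ldhc, Gapdhs, Aldoart1 and Eno4, and the somatic isozymes Pgk1, Ldha, Ldhb, Gapdh and Aldoa. All 10 were found in the table and all 10 passed the filter on low counts. Their levels were compared in whole testes of 3 inhibitor mice and 3 control mice by sequencing of polyadenylated RNA. Inhibitor mice were injected daily for 9 days with 1NaPP1-HCl dissolved in a vehicle of saline, cremophor and ethanol. Control mice received the vehicle alone, at the same 10 microliters per gram of body weight. All 6 animals were C57BL/6J mice of about 120 days that carried Ret V805A on both alleles. Ret is a receptor kinase for GDNF, a factor that maintains spermatogonial stem cells, and V805A is meant to open it to the inhibitor. Testes were taken on day 14, after 5 days without injections. No mice with unaltered Ret are analysed here, so a response through Ret and a response through any other kinase cannot be told apart.

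Glycolysis turns glucose into pyruvate. Fructose-bisphosphate aldolase (Aldo genes) splits the sugar phosphate, glyceraldehyde-3-phosphate dehydrogenase (Gapdh, Gapdhs) oxidises the product, phosphoglycerate kinase (Pgk genes) makes ATP, enolase (Eno genes) forms phosphoenolpyruvate, and lactate dehydrogenase (Ldh genes) interconverts pyruvate and lactate. Spermatogenic cells express isozymes of their own for several of these steps. Pgk1 is X-linked and is silenced with the X chromosome during male meiosis, when its autosomal retrogene Pgk2 becomes active. Sperm that lack PGK2, LDHC, GAPDHS or ENO4 swim poorly, and GAPDHS is bound to the fibrous sheath of the tail.

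The libraries held between 23144295 and 43127890 fragments assigned to genes. Chi-square over degrees of freedom, which is near 1 for counting error alone, was between 4.23 and 6.05 among control mice and 4.94 between inhibitor mice 1 and 2. Inhibitor mouse 3 stood apart from these, at 12.1 and 13.1. Without it, 8.71% of all genes passed as higher and 5.54% as lower, and tests whose call changes without that mouse are given with and without it. Defining genes of the testis were present in all 6 mice. The 10 markers of elongating spermatids summed to between 47402 and 54894 FPKM (fragments scaled to transcript length and library total) in inhibitor mice and to between 44417 and 46551 FPKM in control mice. Undifferentiated spermatogonia are the cells that respond to GDNF. Of 8 tested markers of these cells, 4 passed as lower in inhibitor mice (edgeR), beside 0.0960% of all genes. The threshold used throughout is an adjusted p of 0.05. With single mice left out 0 to 6 passed as lower, and the 6 came without inhibitor mouse 3. In whole tissue, fewer cells of a type and less RNA per cell cannot be told apart.

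The members differ in how well a read of 81 nt can be placed, which sets how far their levels can be trusted. For each member, the transcript of GENCODE M21 (assembly GRCm38, the same as mm10) with the longest coding sequence was taken. It was cut into all its windows of 81 bases, and coding bases given below are numbered in it. For Pgk2, Ldhc, Gapdhs and Eno4, 0 windows were found in a transcript of another gene. Of the 1745 windows of Pgk1, 1176 (67.4%) were also found elsewhere, nearly all of them in its processed copy Pgk1-rs7. Gapdh shared 87.6% of its windows with transcripts of 106 other genes. Ldhb shared 14.9%, Ldha 3.9%, Aldoa 0.5% and Aldoart1 0.4%. The labels and files leave unsaid how fragments that fit several places were assigned. The levels of Pgk1 and Gapdh are therefore uncertain, and so is every ratio that uses them.

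**Figure D1:**
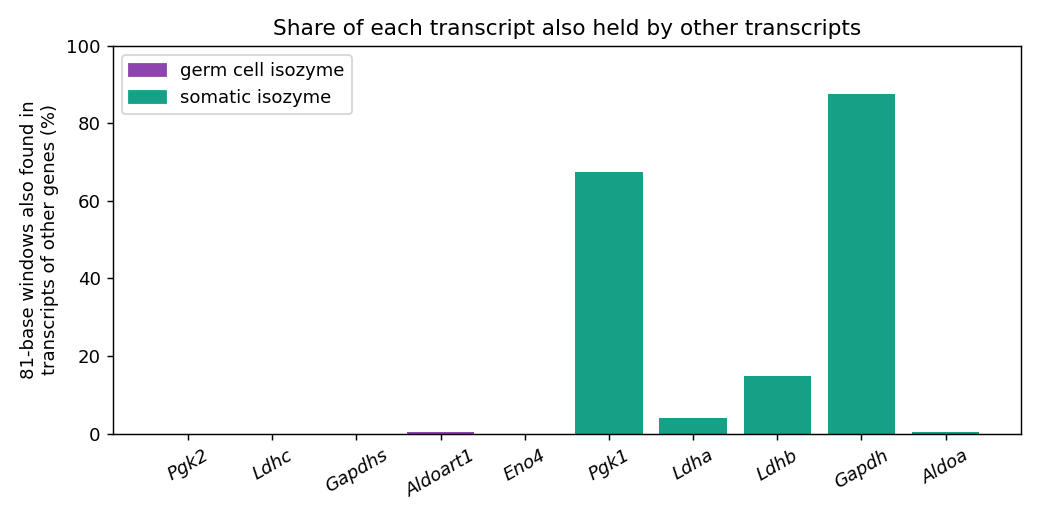
The bars give, for each isozyme gene, the percentage of 81-base windows of its transcript that also occur, letter for letter, in transcripts of other genes. The somatic genes Gapdh (87.6%) and Pgk1 (67.4%) stand far above the germ cell isozymes, which are between 0 and 0.4%.

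The most alike stretches of each pair show what tells their fragments apart. Below is the ungapped 81-base stretch of coding sequence with the most matches in each pair, 5′ to 3′ in the direction of the gene, with the bases that differ between the 2 genes in capitals. Pgk2 lies on chromosome 17 (40207015 to 40208640, reverse strand, a single exon), and Pgk1 on the X chromosome (106187100 to 106203699, forward strand, 11 exons). Their coding sequences are 79.3% identical, and the stretch, coding bases 339 to 419 in both, has 11 differences.
Pgk2: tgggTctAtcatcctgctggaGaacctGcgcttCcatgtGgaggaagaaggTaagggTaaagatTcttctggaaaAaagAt
Pgk1: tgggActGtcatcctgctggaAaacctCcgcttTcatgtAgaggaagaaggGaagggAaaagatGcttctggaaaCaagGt
Ldhc (46861203 to 46878142) and Ldha (46841475 to 46855627) are neighbours on the forward strand of chromosome 7. They are 73.3% identical in coding sequence, with 12 differences in the most alike stretch, at coding bases 556 to 636 of Ldhc and 643 to 723 of Ldha. Ldhc and Ldhb, on chromosome 6 (142490249 to 142507957, reverse strand), are 64.5% identical.
Ldhc: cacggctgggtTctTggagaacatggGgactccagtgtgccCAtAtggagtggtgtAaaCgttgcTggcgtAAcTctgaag
Ldha: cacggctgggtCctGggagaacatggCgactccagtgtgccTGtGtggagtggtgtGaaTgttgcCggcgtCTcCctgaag
Gapdhs, on chromosome 7 (30729775 to 30743681, reverse strand), has a coding sequence of 1323 bases, and Gapdh, on chromosome 6 (125161715 to 125166467, reverse strand), one of 1080. They are 67.8% identical over the 1073 bases that align, with 11 differences in the stretch at coding bases 921 to 1001 of Gapdhs and 681 to 761 of Gapdh.
Gapdhs: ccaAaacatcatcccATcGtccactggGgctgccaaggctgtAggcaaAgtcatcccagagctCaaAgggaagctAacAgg
Gapdh: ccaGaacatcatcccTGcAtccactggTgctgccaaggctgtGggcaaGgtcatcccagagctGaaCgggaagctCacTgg
Aldoart1, a retrogene on chromosome 4 (72850583 to 72852634, reverse strand, a single exon), is 93.9% identical over 1257 aligned bases in coding sequence to Aldoa on chromosome 7 (126795234 to 126800751, reverse strand). Their most alike stretch, at coding bases 550 to 630 of Aldoart1 and 547 to 627 of Aldoa, has 0 differences, so a fragment from it could come from either gene, and it is shown once.
Aldoart1: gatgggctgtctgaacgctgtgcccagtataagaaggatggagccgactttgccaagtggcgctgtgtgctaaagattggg
Eno4 lies on chromosome 19 (58943425 to 58971421, forward strand). Its somatic counterparts Eno1 and Eno3 are described with the rest of the pathway.

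The promoters differ in CpG content within the pairs. In 300-base windows from 250 bases before to 50 after each transcription start (RefSeq, GRCm38.p6; 9 members matched by symbol), the median of 32851 promoters was 7 CpG dinucleotides. The window of Pgk2 held 4 and that of Pgk1 held 24, more than 80.0% of all promoters. Ldhc has 2 listed starts with 9 and 3 CpG, against 30 and 13 at the 2 starts of Ldha and 17 at Ldhb. Gapdhs had 4 and 1 at its 2 starts, and Gapdh 12. Aldoa had 23, 24 and 0 at its 3 starts. Eno4, a germ cell isozyme, had 24, as many as Pgk1. Windows are shown for the pair with the widest difference in level and for Ldhc, the most abundant member. Capitals mark matches on either strand to GGGCGG (the GC box, in 35.7% of all promoters), CCAAT (37.4%), TATAAA (13.6%) and TGACG (20.8%), the core of the cyclic AMP response element, whose full form TGACGTCA contains it and was in 1.8%.
Pgk2 (chr17:40208560-40208859, reverse strand): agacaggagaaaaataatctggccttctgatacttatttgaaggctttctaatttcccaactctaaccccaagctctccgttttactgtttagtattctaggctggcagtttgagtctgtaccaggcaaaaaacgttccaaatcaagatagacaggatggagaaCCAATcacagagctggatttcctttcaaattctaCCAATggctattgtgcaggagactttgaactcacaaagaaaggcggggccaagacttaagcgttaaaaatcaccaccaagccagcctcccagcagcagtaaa
Pgk1 (chrX:106186850-106187149, forward strand): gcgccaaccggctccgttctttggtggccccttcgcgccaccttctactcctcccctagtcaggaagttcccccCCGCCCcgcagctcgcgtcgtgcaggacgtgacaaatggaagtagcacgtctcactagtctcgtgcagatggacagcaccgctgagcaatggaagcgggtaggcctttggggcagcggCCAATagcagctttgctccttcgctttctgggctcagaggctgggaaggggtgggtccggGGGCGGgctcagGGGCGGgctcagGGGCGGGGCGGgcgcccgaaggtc
Ldhc (chr7:46861013-46861312, forward strand): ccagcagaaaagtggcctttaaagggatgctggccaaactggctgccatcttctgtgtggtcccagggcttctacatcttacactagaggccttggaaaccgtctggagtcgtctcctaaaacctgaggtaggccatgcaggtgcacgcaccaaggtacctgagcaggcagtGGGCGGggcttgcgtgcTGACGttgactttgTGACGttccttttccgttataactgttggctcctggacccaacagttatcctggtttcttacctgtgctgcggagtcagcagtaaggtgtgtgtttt
The Pgk2 window held 2 matches to CCAAT and 0 to the GC box, whereas the Pgk1 window held 1 match to CCAAT and 5 to the GC box, with overlaps counted. The Ldhc window shown held 2 matches to TGACG and 1 GC box, and the other Ldhc window, with 3 CpG, held 0 of these motifs. The somatic partner Ldha had such matches, too. Its window with 30 CpG held 1 match to the full form TGACGTCA, 2 to TGACG and 3 to the GC box. Its window with 13 CpG held 1 match to TGACG. These are matches of letters in single windows and were not tested for binding.

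Germ cell isozymes were the major transcripts at 3 of the 4 steps with a germ cell and a somatic member. Over all 6 mice Ldhc was the most abundant member at a mean of 3319 FPKM, followed by Gapdhs at 1326 and Pgk2 at 723 FPKM. Ldha came next at 594 and Aldoa at 277 FPKM. Lower levels were those of Ldhb (89.8 FPKM), Aldoart1 (66.5 FPKM), Gapdh (51.9 FPKM), Eno4 (29.2 FPKM) and Pgk1 (13.4 FPKM). No neighbours in this order overlapped: in each case the lowest of the 6 values of the one exceeded the highest of the next.

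**Figure D2:**
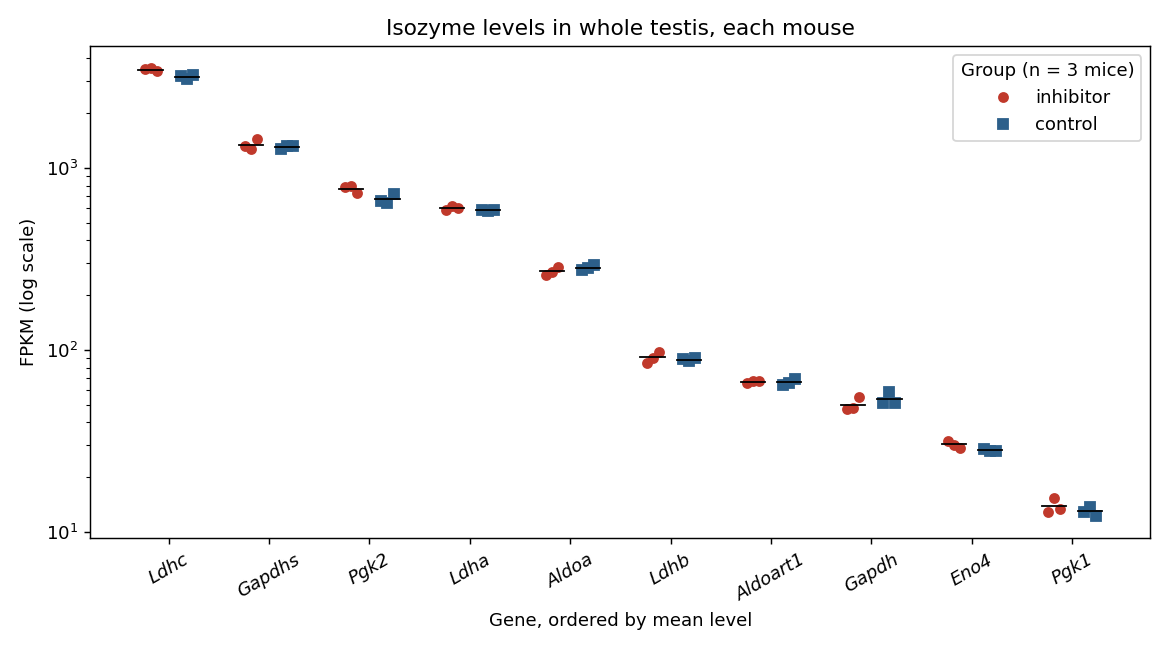
Each point is the FPKM level of a gene in a mouse, on a log axis, with inhibitor mice left of control mice and a line at each group's mean (n = 3 mice per group). The genes run from Ldhc at a mean of 3319 FPKM to Pgk1 at 13.4 FPKM, and no gene's points overlap those of the next gene in order of level.

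None of the 10 members passed the test between inhibitor and control mice (edgeR quasi-likelihood test, two-sided, Benjamini-Hochberg adjustment over 16658 genes). Of all genes, 0.0600% passed as higher and 0.0960% as lower. At an unadjusted p under 0.05, 2 members were higher, Pgk2 and Ldhc, and 0 were lower, beside 9.43% of all genes higher and 8.47% lower. In 3 members, Pgk2, Ldhc and Eno4, every inhibitor mouse was above every control mouse, which held for 11.0% of all genes, and 0 members were apart in the other direction (11.9% of all genes). DESeq2 called 1 member as higher, beside 3.20% of the genes to which it gave an adjusted p, and 0 as lower, beside 1.45%. The median log2 fold change, inhibitor over control, was 0.04 over the 10 members and 0.00 over all genes tested.

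Pgk2, the kinase isozyme of spermatocytes and spermatids, was at 785, 798 and 731 FPKM in inhibitor mice 1, 2 and 3, against 656, 646 and 723 FPKM in control mice 1, 2 and 3. The groups did not overlap, although inhibitor mouse 3 and control mouse 3 lay close together. The mean was 771 ± 35.4 FPKM in inhibitor mice and 675 ± 42.2 FPKM in control mice (SD, n = 3 each), a difference of 0.19 on the log2 scale of the count model (SE 0.053, 95% interval 0.08 to 0.30) that did not pass (edgeR adjusted p = 0.114). Without inhibitor mouse 3 it passed at 0.23 (edgeR adjusted p = 0.0050), in a comparison where 8.71% of all genes passed as higher, and with all 6 mice DESeq2 called it, too (adjusted p = 0.0460). After a correction for length and GC content of transcripts in every library, the estimate was 0.06 (edgeR adjusted p = 0.515).

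Pgk1, the kinase isozyme of somatic cells, was at 12.9, 15.4 and 13.4 FPKM in inhibitor mice, against 12.8, 13.8 and 12.3 FPKM in control mice. The groups overlapped, and the log2 difference of 0.09 (SE 0.084, 95% interval −0.09 to 0.28) did not pass (edgeR adjusted p = 0.596). Its counts were the lowest of the members, between 521 and 988 fragments per library. The estimate ranged from 0.02 to 0.15 with single mice left out.

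Ldhc, the lactate dehydrogenase of male germ cells, was at 3496, 3529 and 3394 FPKM in inhibitor mice, against 3196, 3075 and 3222 FPKM in control mice. All inhibitor mice were higher. The means were 3473 ± 70.1 FPKM in inhibitor mice and 3164 ± 78.4 FPKM in control mice (SD, n = 3 each), and the log2 difference of 0.13 (SE 0.038, 95% interval 0.05 to 0.22) did not pass (edgeR adjusted p = 0.123). Without inhibitor mouse 3 it passed at 0.15, like 8.71% of all genes (edgeR adjusted p = 0.0083). It was 0.02 after the length and GC correction (edgeR adjusted p = 0.858).

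Neither somatic lactate dehydrogenase gene passed. Ldha, which encodes the M subunit, was at 587, 618 and 603 FPKM in inhibitor mice, against 585, 582 and 587 FPKM in control mice. Its control mice were the closest together of any member, with a coefficient of variation of 0.382%, and inhibitor mouse 1 lay just below control mouse 3. The log2 difference was 0.04 (95% interval −0.04 to 0.13, edgeR adjusted p = 0.614). Ldhb, which encodes the H subunit, was at 85.2, 90.3 and 97.4 FPKM in inhibitor mice, against 89.1, 86.8 and 89.9 FPKM in control mice. The inhibitor mice spanned the control values, and the log2 difference of 0.04 (95% interval −0.09 to 0.16, edgeR adjusted p = 0.788) turned to −0.01 without inhibitor mouse 3.

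Gapdhs, the dehydrogenase of spermatids, was at 1316, 1270 and 1444 FPKM in inhibitor mice, against 1276, 1326 and 1321 FPKM in control mice. Inhibitor mouse 3 was the highest and inhibitor mouse 2 the lowest of all 6. The log2 difference was 0.04 (95% interval −0.07 to 0.14, edgeR adjusted p = 0.739), and without inhibitor mouse 3 it was −0.02. Gapdh, the somatic gene often used as a reference for RNA amounts, was at 47.5, 47.9 and 54.8 FPKM in inhibitor mice, against 51.4, 58.8 and 50.9 FPKM in control mice. The groups overlapped, and the log2 difference of −0.10 (95% interval −0.27 to 0.06) did not pass (edgeR adjusted p = 0.505).

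Aldoart1, an aldolase retrogene of spermatids, was at 65.9, 67.1 and 67.2 FPKM in inhibitor mice, against 64.0, 65.6 and 69.4 FPKM in control mice. The inhibitor mice lay within the span of the control mice, and the log2 difference was 0.01 (95% interval −0.10 to 0.12, edgeR adjusted p = 0.962). Aldoa, the aldolase of muscle and many other tissues, was at 258, 267 and 285 FPKM in inhibitor mice, against 276, 282 and 291 FPKM in control mice. The groups overlapped through inhibitor mouse 3, and the log2 difference of −0.07 (95% interval −0.17 to 0.03) did not pass (edgeR adjusted p = 0.471). Eno4, an enolase needed for sperm motility, was at 31.7, 30.2 and 28.9 FPKM in inhibitor mice, against 28.6, 28.0 and 28.0 FPKM in control mice. All inhibitor mice were higher, with inhibitor mouse 3 close to control mouse 1, and the log2 difference of 0.10 (95% interval −0.02 to 0.22) did not pass (edgeR adjusted p = 0.371).

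**Figure D3:**
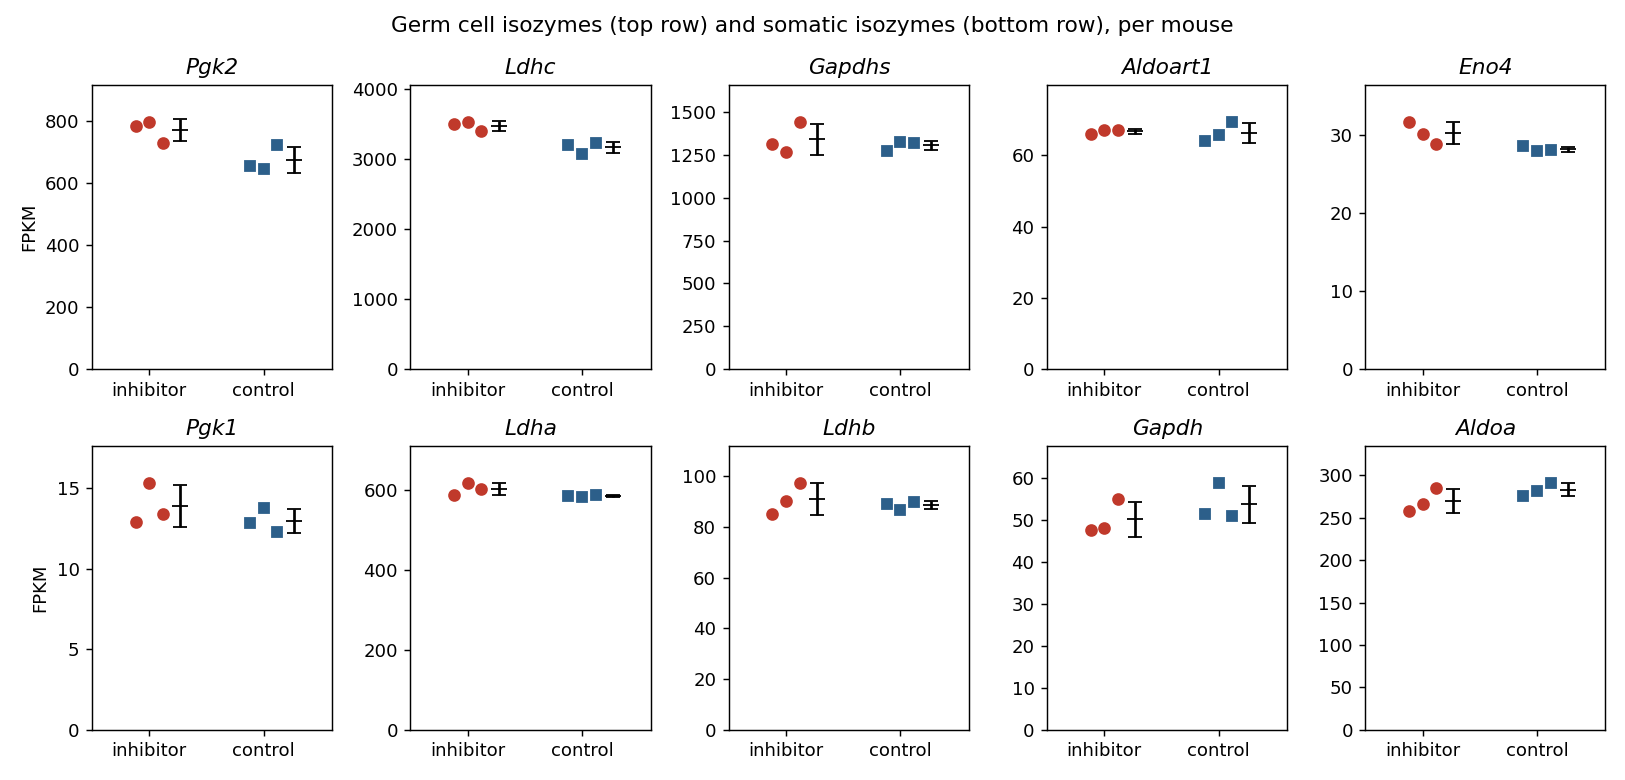
Points give FPKM in each mouse on axes that start at 0, inhibitor left of control, and the bars beside them the mean and SD (n = 3 mice per group). Germ cell isozymes fill the top row and somatic isozymes the bottom row. In Pgk2, Ldhc and Eno4 all inhibitor mice lie above all control mice, and in the other 7 genes the groups overlap.

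The 5 germ cell isozymes all had estimates above 0 (0.01 to 0.19, median 0.10), but Aldoart1 turned to −0.02 with libraries scaled by their totals alone, to −0.05 after the length and GC correction and to −0.02 without control mouse 1, and Gapdhs turned to −0.02 without inhibitor mouse 3. Of the 5 somatic isozymes 3 had estimates above 0 and Gapdh and Aldoa below 0 (−0.10 to 0.09, median 0.04). Whether the germ cell and somatic sets differ was not tested.

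The ratio of a germ cell isozyme to its somatic partner within a mouse does not depend on how library totals were scaled, but it keeps any effect of transcript length and GC content. Ldhc exceeded Ldha 5.96-, 5.71- and 5.63-fold in inhibitor mice 1, 2 and 3, against 5.46-, 5.28- and 5.49-fold in control mice. The groups did not overlap, and Ldhc made up 83.3 ± 0.50% of the FPKM of Ldha, Ldhb and Ldhc in inhibitor mice and 82.4 ± 0.28% in control mice (SD, n = 3 each). Ldhc exceeded Ldhb 41.0-, 39.1- and 34.8-fold in inhibitor mice, against 35.8-, 35.4- and 35.8-fold in control mice, with inhibitor mouse 3 below all control mice.

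Gapdhs exceeded Gapdh 27.7-, 26.5- and 26.3-fold in inhibitor mice, against 24.8-, 22.6- and 26.0-fold in control mice. These groups did not overlap either, but inhibitor mouse 3 and control mouse 3 were close. For scale, the groups did not overlap, in either direction, in 22.9% of all genes tested, taken singly by scaled counts. No such share was computed for ratios.

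Pgk2 exceeded Pgk1 60.8-, 51.9- and 54.5-fold in inhibitor mice, against 51.1-, 46.9- and 58.9-fold in control mice, and these groups overlapped. Pgk2 made up 98.2 ± 0.14% of the summed FPKM of Pgk1 and Pgk2 in inhibitor mice and 98.1 ± 0.21% in control mice. Aldoart1 stood at 0.255, 0.252 and 0.236 of the level of Aldoa in inhibitor mice, against 0.232, 0.233 and 0.238 in control mice, with overlap. Among the members, the aldolase step was thus the one at which the somatic isozyme gene was the more abundant. In whole testis this does not tell which cells transcribed Aldoa. Another germ cell copy, Aldoart2, is not among the members and is described below. These ratios are given as values with no test. On the log2 scale of the count model, the fold change of Ldhc exceeded that of Ldha by 0.09, and by 0.01 after the length and GC correction. For Gapdhs over Gapdh the excess was 0.14, and 0.08 after the correction. For Pgk2 over Pgk1 it was 0.10 and, corrected, 0.02. The correction took Gapdh at 3289 bases, its longest transcript, whereas its coding transcript used above has 1273 bases.

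**Figure D4:**
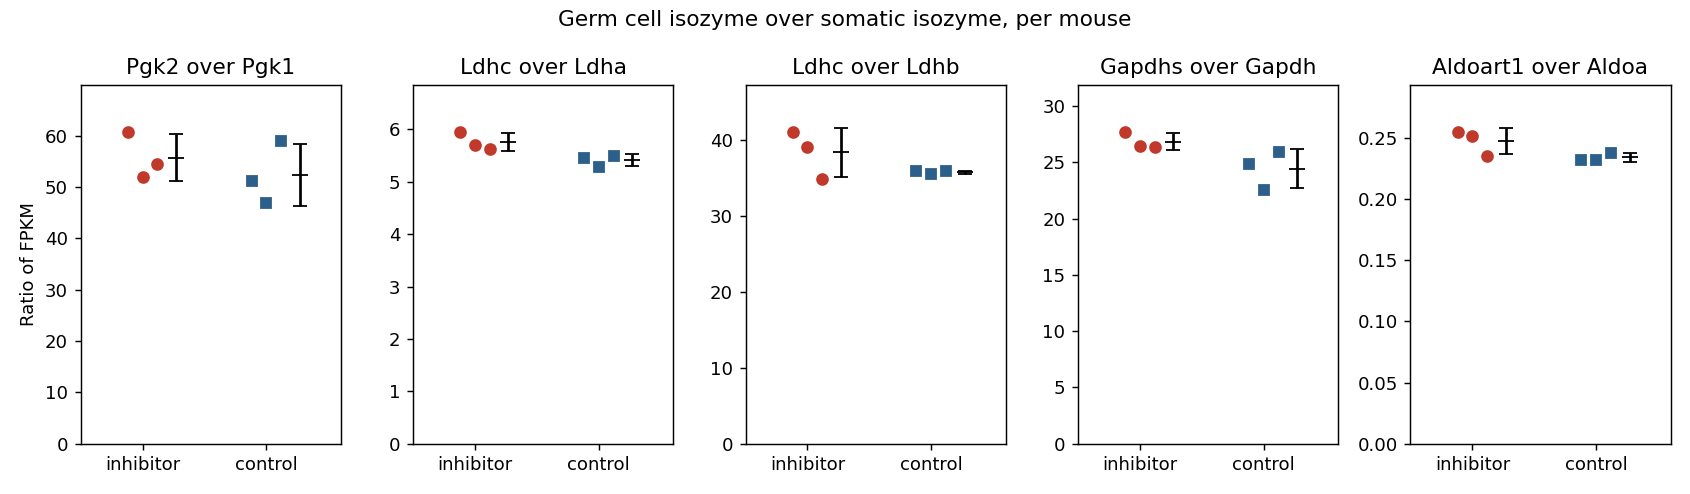
Each panel gives the ratio of the FPKM of a germ cell isozyme to that of a somatic isozyme in each mouse, inhibitor left of control, with the mean and SD beside the points (n = 3 mice per group); the axes start at 0. The inhibitor mice lie above the control mice for Ldhc over Ldha and for Gapdhs over Gapdh, and the groups overlap in the other 3 ratios.

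Further germ cell copies add to some steps. Aldoart2, another aldolase retrogene, was at 277 ± 18.9 FPKM in inhibitor mice and 275 ± 5.61 FPKM in control mice (SD, n = 3 each), close to Aldoa. Aldoart2 held 44.8 ± 1.05% of the FPKM of all 5 tabulated aldolase genes in inhibitor mice and 43.8 ± 0.28% in control mice, and Aldoart1 held 10.8 ± 0.49% in inhibitor mice and 10.6 ± 0.18% in control mice. Ldhal6b, an intronless lactate dehydrogenase gene, was at 538 ± 9.26 FPKM in inhibitor mice and 478 ± 4.73 FPKM in control mice. All 3 inhibitor mice were higher, with a log2 difference of 0.17 that did not pass (SE 0.040, edgeR adjusted p = 0.0928). It passed at 0.17 with DESeq2 (adjusted p = 0.0265) and at 0.18 without inhibitor mouse 3 (edgeR adjusted p = 0.0038). After the length and GC correction it was 0.09 and did not pass (edgeR adjusted p = 0.281). When Ldhal6b is counted with the other lactate dehydrogenases, the share of Ldhc overlapped between the groups, at 73.8 ± 0.42% in inhibitor mice and 73.3 ± 0.41% in control mice. Eno4 held 20.1 ± 0.90% of the FPKM of 4 enolase genes in inhibitor mice and 20.3 ± 0.54% in control mice.

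Of the other 39 tabulated genes of sugar entry, glycolysis, lactate transport and pyruvate use, 36 were tested and 0 passed in either direction (edgeR quasi-likelihood test). Without inhibitor mouse 3, 6 passed as higher (Pgam2, Bpgm, Eno1, Ldhal6b, Slc16a7 and Mpc2) and 3 as lower (Slc2a1, Hk2 and Pfkl, a phosphofructokinase gene chosen after its values were seen), beside 8.71% and 5.54% of all genes. DESeq2 called Ldhal6b as higher and Slc2a1 as lower. With all 6 mice, 7 were higher and 3 were lower at an unadjusted p under 0.05, beside 9.43% and 8.47% of all genes, and the median log2 difference was 0.05. The groups stood apart in 10 of them, 7 higher and 3 lower, beside 22.9% of all genes. Pgam2, the phosphoglycerate mutase of muscle, had the highest level of these genes, at 957 ± 61.8 FPKM in inhibitor mice and 848 ± 21.8 FPKM in control mice (log2 difference 0.17, edgeR adjusted p = 0.126; without inhibitor mouse 3, 0.22 and 0.0026). Bpgm, which makes 2,3-bisphosphoglycerate, was at 59.6 ± 1.58 FPKM in inhibitor mice and 53.5 ± 0.53 FPKM in control mice (0.15, adjusted p = 0.141 by the same edgeR test; without inhibitor mouse 3, 0.17 and 0.0215).

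The enolase Eno1, found in most tissues, was at 80.6 ± 3.15 FPKM in inhibitor mice and 70.6 ± 3.13 FPKM in control mice (log2 difference 0.19, edgeR adjusted p = 0.116). Without inhibitor mouse 3 it passed at 0.21 (edgeR adjusted p = 0.0152). The muscle enolase Eno3 was at 39.6 ± 2.57 FPKM in inhibitor mice and 40.1 ± 1.75 FPKM in control mice. Tpi1, the triosephosphate isomerase, was at 296 ± 3.86 FPKM in inhibitor mice and 276 ± 6.37 FPKM in control mice, without overlap (log2 difference 0.10, edgeR adjusted p = 0.237). With all 6 mice, none of these 3 differences passed.

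Genes of the steps from hexokinase to phosphofructokinase, and pyruvate kinase, did not pass with all 6 mice. The hexokinase gene Hk1 was at 508 ± 32.9 FPKM in inhibitor mice and 528 ± 4.55 FPKM in control mice, and Hk2 at 7.22 ± 1.33 FPKM in inhibitor mice and 8.07 ± 0.39 FPKM in control mice (SD, n = 3 each). Gpi1, the glucose-6-phosphate isomerase, was at 218 ± 14.2 FPKM in inhibitor mice and 215 ± 6.54 FPKM in control mice. The phosphofructokinase genes Pfkm and Pfkp were at 67.5 ± 6.16 and 35.6 ± 2.85 FPKM in inhibitor mice, against 63.2 ± 2.35 and 35.2 ± 0.20 FPKM in control mice. The pyruvate kinase gene Pkm was at 197 ± 10.7 FPKM in inhibitor mice and 194 ± 7.98 FPKM in control mice. Each of these 6 had an edgeR adjusted p of at least 0.481. Without inhibitor mouse 3, Hk2 passed at −0.33 (edgeR adjusted p = 0.0041), and Hk1, at −0.11, did not (edgeR adjusted p = 0.0572). Pfkl was at 6.02 ± 0.79 FPKM in inhibitor mice and 6.89 ± 0.58 FPKM in control mice. Its log2 difference was −0.20 with all 6 mice (edgeR adjusted p = 0.313) and −0.31 without inhibitor mouse 3 (edgeR adjusted p = 0.0285).

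Transporters had high levels at both ends of the pathway. Slc2a3, a glucose transporter, was at 401 ± 15.9 FPKM in inhibitor mice and 387 ± 4.40 FPKM in control mice, and Slc2a5, a fructose transporter, at 264 ± 21.8 FPKM in inhibitor mice and 258 ± 8.09 FPKM in control mice. Slc16a7, a lactate and pyruvate carrier, was at 297 ± 23.2 FPKM in inhibitor mice and 275 ± 13.5 FPKM in control mice, and Bsg, which chaperones such carriers, at 398 ± 13.7 FPKM in inhibitor mice and 378 ± 11.5 FPKM in control mice. Mpc2 and Pdhb, of the mitochondrial pyruvate carrier and pyruvate dehydrogenase, were at 468 ± 51.9 and 127 ± 7.08 FPKM in inhibitor mice, against 417 ± 17.5 and 123 ± 6.82 FPKM in control mice. Without inhibitor mouse 3, Slc16a7 passed at 0.16, against 0.11 with all mice (edgeR adjusted p = 0.0353 and 0.354). Mpc2 passed at 0.26 without that mouse, against 0.17 with all mice (edgeR adjusted p = 0.0014 and 0.282). The 3 genes that were lower at an unadjusted p under 0.05 are Slc2a1, Slc16a3 and Ldhd. The first 2, a glucose transporter and a lactate exporter of somatic tissues, were chosen after their values were seen. Slc2a1 was at 3.25 ± 0.52 FPKM in inhibitor mice and 4.51 ± 0.37 FPKM in control mice (log2 difference −0.48, edgeR adjusted p = 0.103). It passed with DESeq2 (−0.47, adjusted p = 0.0376) and without inhibitor mouse 3 (−0.61, edgeR adjusted p = 0.0031). Slc16a3 was at 6.03 ± 0.15 FPKM in inhibitor mice and 7.06 ± 0.68 FPKM in control mice (log2 difference −0.23, edgeR adjusted p = 0.209). Ldhd, a D-lactate dehydrogenase, was at 2.49 ± 0.15 FPKM in inhibitor mice and 3.30 ± 0.41 FPKM in control mice (log2 difference −0.42, edgeR adjusted p = 0.139). In all 3 genes every inhibitor mouse was below every control mouse.

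**Figure D5:**
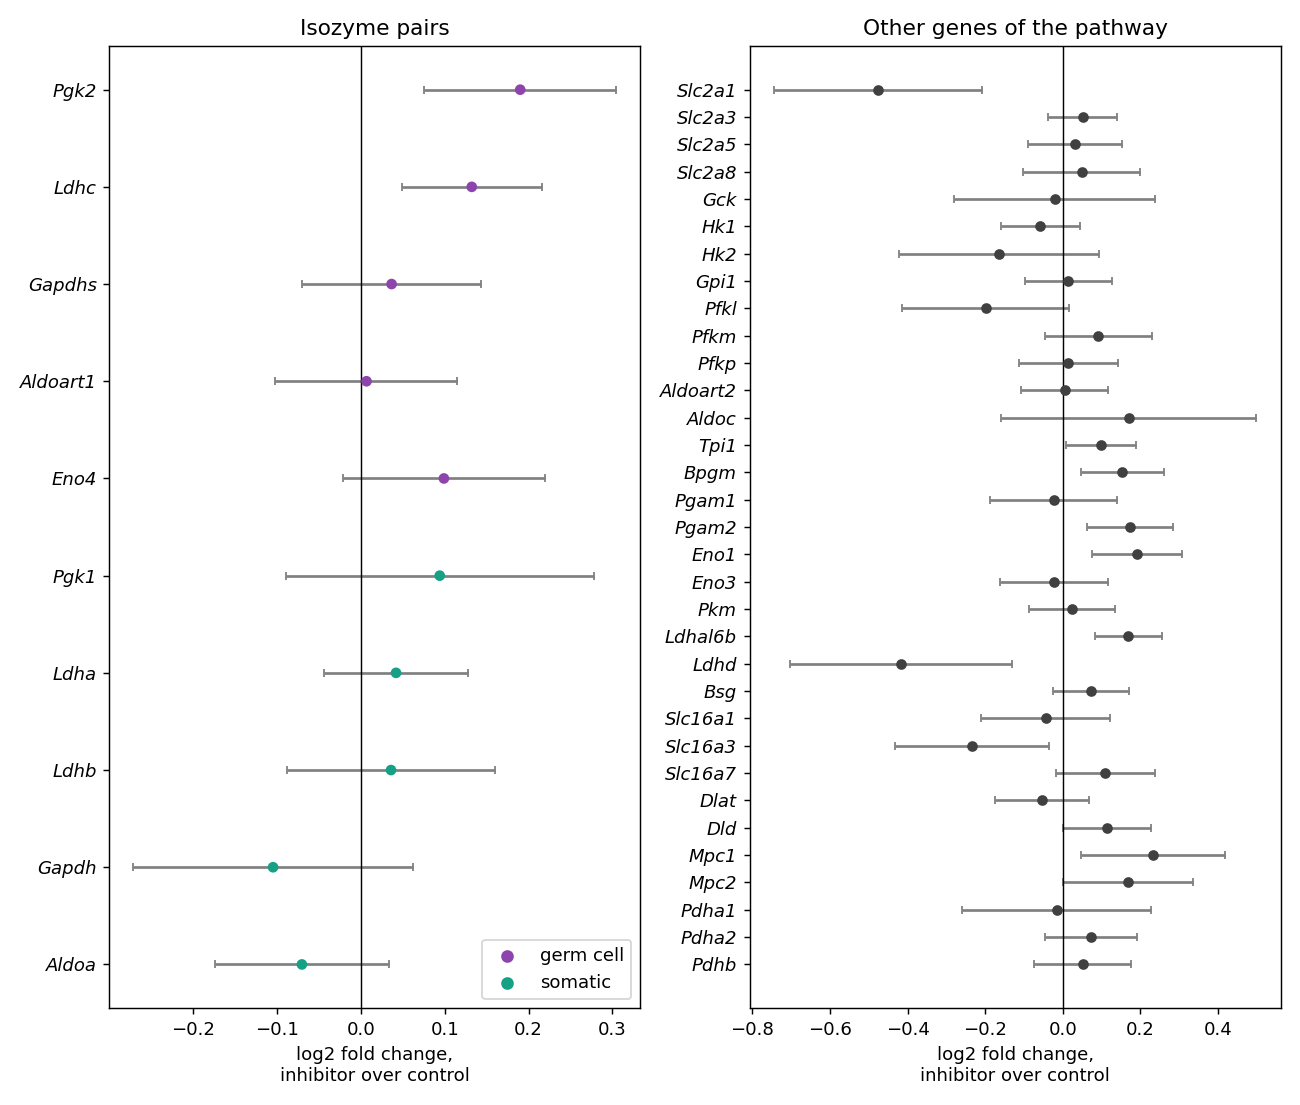
Log2 fold changes of inhibitor over control mice (edgeR) with 95% intervals, for the 10 isozyme genes at the left, germ cell above somatic, and for 33 other genes of the pathway with a mean of at least 1 FPKM at the right, in pathway order. The intervals of Pgk2 and Ldhc lie above 0, those of the other 8 isozymes cross it, and with all 6 mice no gene shown passed the adjusted threshold.

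The genes nearest to a member in profile were found by the root mean square difference of log2 CPM over the 6 mice, each gene centred on its own mean. CPM are counts scaled to library totals adjusted by the scaling factors of the main test. The 9337 candidate genes had a mean log2 CPM of 3 or higher, with members and unnamed loci left out. Nearest to Pgk2 were Stard6 (0.009), Ccdc50 (0.015) and Spn-ps (0.016). Nearest to Ldhc were Dap3 (0.011), Spata6 (0.014) and Prdx6b (0.015), the last with a close relative in Prdx6 that may share its fragments. Pgk1 was nearest to Slc15a4 (0.030), Ndufb11 (0.033) and Mpg (0.036), and Ldha to Lypd4 (0.009), Yes1 (0.010) and Sephs2 (0.011). For scale, the root mean square of a member's own centred values was 0.115 for Pgk2, 0.071 for Ldhc, 0.103 for Pgk1 and 0.030 for Ldha. A gene that varies little is thus near to any other such gene, and shared regulation was not tested. Among the members themselves, Pgk2 differed from Ldhc by 0.053 and from its own partner Pgk1 by 0.126, and Ldhc differed from Eno4 by 0.039.

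Levels of marker genes for the cells that make these isozymes are given beside them. The 10 markers of pachytene and later spermatocytes, in which Pgk2 and Ldhc are expressed, summed to between 3162 and 3396 FPKM in inhibitor mice and to between 3248 and 3265 FPKM in control mice, with 7 of 10 estimates above 0 and a median log2 difference of 0.05. Those of round spermatids summed to between 1575 and 1765 FPKM in inhibitor mice and to between 1504 and 1650 FPKM in control mice, with 8 of 10 estimates above 0 and a median of 0.08. The sums of elongating spermatids given above did not overlap, with 9 of 10 estimates above 0 and a median of 0.15. No marker of these 3 lists passed, and none was at 0. The 12 Sertoli cell markers, of which 9 had estimates below 0 (median −0.05), summed to between 1334 and 1457 FPKM in inhibitor mice and to between 1301 and 1340 FPKM in control mice. The part of cell composition in the values of Pgk2, Ldhc and Eno4 was not tested.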

How the data were processed

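Per the labels' protocols, directional libraries were made from 500 ng of total RNA after polyA selection. Tools listed in the submitters' processing notes are cutadapt 1.8, TopHat2 2.0.13 and Cuffdiff 2.2.1, with build mm10; the sources used here give neither their settings, strand rule or annotation nor the treatment of fragments that fit several genes. The deposited expected counts (fragments per gene, unscaled) were rounded; all 60 values of the members were already whole within 1e-06. The deposited FPKM values, scaled by the authors' software, were used for levels and ratios.

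Counts were tested with edgeR 4.0.16 (R 4.3.3, limma 3.58.1): filterByExpr, trimmed mean of M values, robust quasi-likelihood F-test, two-sided, Benjamini-Hochberg adjustment over 16658 genes. Simulated counts with known changes were used to check the procedure. DESeq2 1.42.0 was an alternative. The length and GC correction used loess offsets from the longest GENCODE M21 transcript of each gene and covered 93.3% of tested genes. Intervals cover the spread between mice. Members and lists were chosen with earlier results of these data known. Named beyond the members were the 2 genes of each pathway role with the highest mean FPKM and the 3 genes nearest to Pgk2, Ldhc, Pgk1 and Ldha. Of those, Aldoc and Pklr were low, at up to 4.06 and 0.025 FPKM as group means, and are not described further.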

Additional observations from a re-analysis of the deposited data

How the results depend on the processing

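Of the 10 members, 0 passed as higher in the main test. DESeq2 called 1, Pgk2 (log2 difference 0.19, adjusted p = 0.0460), and 0 to 2 were called as higher with single mice left out; 0 were called as lower in any alternative. With single mice left out, the log2 difference ranged from 0.16 to 0.25 for Pgk2 and from 0.12 to 0.15 for Ldhc. It ranged from −0.0148 to 0.0808 for Ldhb, from −0.0164 to 0.0749 for Gapdhs and from −0.0200 to 0.0485 for Aldoart1, and both Pgk2 and Ldhc passed without inhibitor mouse 3, as did 8.71% of all genes as higher. With the length and GC trend removed, Ldhb turned to −0.0175 and Aldoart1 to −0.0545, and with library totals alone Aldoart1 turned to −0.0239; the cause was not tested. Leaving out the 50 most abundant genes removed Ldhc and Gapdhs themselves, so they have no value there.

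Over all genes, 10 were higher and 16 lower in the main test. Counts of higher and lower genes were 367 and 166 with DESeq2, 58 and 57 without a filter, 3 and 7 with at least 50 counts in 3 libraries, 0 and 0 on log2(FPKM + 1), and 0 and 1 on log2(FPKM + 0.1). Library totals alone gave 4 and 23, and limma-voom 3 and 11. With single mice left out the counts ranged from 0 to 1470 higher and from 0 to 935 lower; the highest of both came without inhibitor mouse 3. The mouse number as a replicate block gave 0 higher and 5 lower. Same-numbered mice were correlated at 0.062, −0.116 and −0.020, and the labels give the number no meaning, so it was not used as a pairing; with the block Pgk2 stayed at 0.19 and Ldhc at 0.13, and no member passed.

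Of the pathway genes, 0 passed in the main test; DESeq2 called 1 as higher and 1 as lower, and 0 to 6 were called as higher and 0 to 3 as lower with single mice left out, the most without inhibitor mouse 3. Of the spermatogonial markers 4 were called as lower, against 2 with the replicate block and 0 on either log2(FPKM) scale. DESeq2 gave an adjusted p to 2 of them and called 0. With single mice left out 0 to 6 were called as lower, the most without inhibitor mouse 3, where 5.54% of all genes passed as lower. These counts of pathway genes and markers, and the alternatives for Slc2a1, Slc16a3 and Pfkl, were added after seeing the data. Some pathway genes changed sign. After the length and GC correction Hk1 was at 0.0481, Aldoart2 at −0.0177 and Pdhb at −0.0071. Library totals alone gave −0.0162 for Gpi1, −0.0169 for Pfkp, −0.0255 for Aldoart2 and −0.0079 for Pkm. With single mice left out the range was −0.0371 to 0.0687 for Slc2a5, −0.0388 to 0.0462 for Gpi1, −0.0441 to 0.0685 for Pfkp, −0.0491 to 0.0441 for Aldoart2, −0.0709 to 0.0289 for Eno3 and −0.0190 to 0.0563 for Pkm. The range was −0.1069 to −0.0167 for Hk1 and 0.0083 to 0.0921 for Pdhb.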
